A study of Mus musculus with 6 samples.

Results

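Tubb3, the gene of the class III beta tubulin that serves as a common marker of neurons, differed between the CD4+ T cells of the B6 and B6-ChrYSJL strains, while the probe sets of the 9 tubulin genes described beside it overlapped between the strains. The genes described here are Tubb3 and 9 further tubulin genes, namely Tuba1a, Tuba1b, Tuba1c, Tuba4a, Tubb2a, Tubb2b, Tubb4b, Tubb5 and Tubg1. Of these 10, 7 are among the 19938 genes that have a probe set of their own on the array, and the other 3 were read only through shared sets. Members were found through the array's annotation, as every probe set whose gene symbol was one of these or included one among several, which gave 14 of 23410 named probe sets. Tubb3 was selected on its measured difference between these strains, which passed a false discovery rate of 0.05, so the strain values of Tubb3 and of the genes set beside it are a description, and no test of them is offered.

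Each of the 6 arrays measured RNA of one pool of 5 naive female mice aged 8 weeks, from which CD4+TCRB+ cells were sorted out of the axillary, brachial and inguinal lymph nodes. In 3 pools the females were B6 (C57BL/6J), and in the other 3 they were B6-ChrYSJL, a consomic strain in which the Y chromosome of SJL was moved onto B6 by repeated backcrossing. The females themselves carry no Y chromosome, so by design the groups differ in the Y chromosome of their fathers, and neither group was treated. The consomic strain carries the substrain name C57BL/6JEi and was kept by sibling mating between backcrosses to B6. The authors detected no donor strain contamination by SNP typing. Differences of substrain or colony cannot be told apart from the father's Y chromosome in these arrays. The comparison asks whether the father's Y chromosome is reflected in the transcripts of his daughters' T cells. Because each array is a pool, the spread between arrays is a spread between pools and not between single mice.

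Tubulins are the subunits of microtubules. An alpha and a beta tubulin form a stable heterodimer, dimers stack head to tail into protofilaments, and gamma tubulin sits in the ring complex that starts a new microtubule at the centrosome. The alpha and beta isotypes are coded by separate genes with very similar coding sequence and differ mostly in their C-terminal tails. In T cells, microtubules carry the centrosome and secretory vesicles to the contact with an antigen-presenting cell and build the mitotic spindle. Tubb3 is best known from neurons, where it makes microtubules more dynamic, and is low in most other tissues.

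The promoters of 2 beta tubulin genes are shown. Tubb3 is the one that differed most between strains, and Tubb5 is the principal beta tubulin of dividing and blood cells, in which the strains overlapped. Each run holds the 250 bases before the start of transcription in RefSeq (GRCm38.p6), 5′ to 3′ on the gene's own strand, and capitals mark matches on either strand to the TATA box letters TATAA, the CCAAT box letters CCAAT, the GC box letters GGGCGG or the E box letters CACGTG. Tubb3 lies at chr8:123411303-123411552 on the plus strand and Tubb5 at chr17:35838302-35838551 on the minus strand.
Tubb3: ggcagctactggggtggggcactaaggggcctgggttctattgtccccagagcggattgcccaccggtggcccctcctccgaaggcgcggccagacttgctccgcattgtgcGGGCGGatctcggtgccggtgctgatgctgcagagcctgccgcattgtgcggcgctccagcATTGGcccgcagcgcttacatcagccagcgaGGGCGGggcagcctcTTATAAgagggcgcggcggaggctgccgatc
Tubb5: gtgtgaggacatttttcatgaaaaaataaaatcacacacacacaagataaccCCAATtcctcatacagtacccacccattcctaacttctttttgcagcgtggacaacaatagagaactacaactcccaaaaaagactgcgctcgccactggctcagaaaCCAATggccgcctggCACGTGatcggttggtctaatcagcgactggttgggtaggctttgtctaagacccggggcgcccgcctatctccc

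In the Tubb3 promoter, TATAA lay from 30 to 26 bases before the start and overlapped a match on the reverse strand from 31 to 27. GGGCGG occurred from 46 to 41 and from 138 to 133 bases before the start, and CCAAT from 77 to 73 on the reverse strand. The Tubb5 promoter held neither TATAA nor GGGCGG, and had CCAAT from 90 to 86 and from 198 to 194 and CACGTG from 75 to 70. Both were found among the 8 of 10 members with a RefSeq promoter in the table used. Of those 8, TATAA occurred in 3, CCAAT in 5, GGGCGG in 6 and CACGTG in 1. Over 32851 mouse promoters of the same length, the shares were 22.8% for TATAA, 33.9% for CCAAT, 32.7% for GGGCGG and 6.02% for CACGTG. The GC content was 68.0% for Tubb3 and 49.2% for Tubb5, against a median of 52.4% over all promoters. These matches describe letters in a window and are not measured binding sites.

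The 6 arrays were alike in overall signal. Over all 35556 deposited probe sets, their medians lay between 6.41 and 6.44 on the log2 scale. Any 2 arrays correlated with r between 0.991 and 0.993 over the same sets. A background level of 5.98 was taken from 1205 probe sets of olfactory and vomeronasal receptors, genes of sensory cells that serve here as silent transcripts, and 61.5% of the tested probe sets had a mean above it. All 8 measured T cell markers lay above background on every array, with Cd3e between 12.48 and 12.53 and Cd4 between 11.49 and 11.61, and the median strain difference of the list was 0.00. A probe set's values are compared between arrays only, since brightness differs between probe sets for reasons other than RNA amount. In RNA of a sorted population, fewer cells of a type and less RNA per cell cannot be told apart.

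Tubb3 was read by 1 probe set of its own. Its log2 values were 5.28, 5.43 and 5.48 in the B6 pools and 6.14, 6.21 and 6.21 in the B6-ChrYSJL pools. All 3 B6-ChrYSJL pools were higher than every B6 pool, and the values within each strain were close together, with a mean of 5.40 ± 0.10 in B6 and 6.19 ± 0.04 in B6-ChrYSJL (SD, n = 3). The difference was 0.79 with a standard error of 0.07 (limma), a 1.73-fold higher signal in B6-ChrYSJL with a 95% interval from 1.54 to 1.94. The false discovery rate that chose the gene was 0.0218 in limma, and the transcript next in order, just outside the limit, was at 0.0532. Leaving out any single pool except B6 replicate 3 raised the rate of Tubb3 to between 0.103 and 0.166, and a linear model without moderation gave 0.226. Tubb3 was 1 of 4 probe sets past 0.05 in limma, which is 0.0171% of those tested, and the only one of the 4 that was higher in B6-ChrYSJL (0.00427%). The authors, who used analysis of variance in Partek on these arrays, reported no differentially expressed transcript at a false discovery rate under 0.05.

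The Tubb3 signal was low in both strains. None of the B6 pools reached the background level, while all 3 B6-ChrYSJL pools passed it. Set against the receptor probe sets of the same array, Tubb3 was brighter than 82.7%, 85.8% and 86.3% of them in the B6 pools. In the B6-ChrYSJL pools it was brighter than 96.0%, 97.4% and 96.6%. Its reading in B6 thus lay within the range of transcripts that these cells are not known to make. In B6-ChrYSJL it passed the 95th percentile of those sets, but some of them were brighter still, so it lay near the upper end of the same range. The B6-ChrYSJL mean was 1.15-fold the background level. That level comes from other probe sets, so this ratio does not show that the transcript is present. Among 2698 probe sets whose mean was within 0.25 of that of Tubb3, 95% had a difference between -0.28 and 0.29. In 2 of them the difference was at least that of Tubb3, and in 4 it was at least as large in absolute size. Tubb3 itself is counted among the 2698, the 2 and the 4. Over all tested sets it ranked 20 by absolute difference and 4 among the higher ones. Because Tubb3 was chosen on this difference, its place among these sets was largely set in advance and is no test of it.

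Tubb5 and the sets that hold Tubb4b overlapped between the strains. Tubb5, the main beta tubulin of most dividing cells, gave 12.04, 11.96 and 11.96 in B6 and 11.98, 12.04 and 12.03 in B6-ChrYSJL. The strains overlapped and differed by 0.03, with a standard error of 0.06. Tubb4b, a broadly expressed beta tubulin, was read only through 2 probe sets that also list Zfp646, so its own signal cannot be separated from that gene. These sets differed by -0.04 and 0.01 between the strains, and in both the strains overlapped.

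Tubb2a and Tubb2b, close relatives that are prominent in the nervous system, were read by 1 probe set each and by a shared one that also lists the pseudogene Tubb2a-ps2. Tubb2a was at 8.75, 8.74 and 8.79 in B6 and at 8.69, 8.83 and 8.94 in B6-ChrYSJL, a difference of 0.06. Tubb2b was at 7.65, 7.48 and 7.59 in B6 and at 7.39, 7.60 and 7.89 in B6-ChrYSJL, a difference of 0.05. The shared set was at 6.08, 6.00 and 6.08 in B6 and at 6.06, 6.15 and 6.27 in B6-ChrYSJL, a difference of 0.11, the largest of the 13 sets beside Tubb3. In all 3 of these sets the B6-ChrYSJL pools spread more widely than the B6 pools, and for Tubb2b the SD was 0.25 in B6-ChrYSJL against 0.09 in B6. Among the B6-ChrYSJL pools, all 3 sets were lowest in replicate 1 and highest in replicate 3. The mean log2 level of 14 B cell markers was also lowest in replicate 1 of B6-ChrYSJL at 6.30, with 6.70 in replicate 2 and 6.78 in replicate 3, against 6.35 to 6.43 in the B6 pools. Tubb3 was lowest in replicate 1 in both strains, as was the B cell mean among the B6-ChrYSJL pools and among the B6 pools. The part of these cells in the Tubb2 and Tubb3 values was not tested.

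The alpha tubulins likewise overlapped between the strains. Tuba1a, an isotype abundant in developing brain and present in many cells, gave 11.26, 11.21 and 11.36 in B6 and 11.33, 11.32 and 11.36 in B6-ChrYSJL, a difference of 0.06. Tuba4a, whose protein is made without the C-terminal tyrosine that other alpha tubulins carry, gave 11.15, 11.18 and 11.29 in B6 and 11.23, 11.26 and 11.25 in B6-ChrYSJL, a difference of 0.04. Tuba1b and Tuba1c, the widely expressed alpha tubulins, were read only by probe sets that they share with each other or with Tuba1a. These 4 shared sets differed by -0.03, -0.01, 0.01 and 0.02. Their SDs within a strain lay between 0.02 and 0.05, although opposite changes of genes that share a set would not be seen.

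Tubg1, the gamma tubulin of the nucleating ring complex, was at 8.32, 8.37 and 8.45 in B6 and at 8.45, 8.23 and 8.35 in B6-ChrYSJL. B6-ChrYSJL replicate 2 was the lowest of all pools and replicate 1 of the same strain tied with the highest B6 pool, and the strain difference was -0.03 with a standard error of 0.08.

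**Figure D1:**
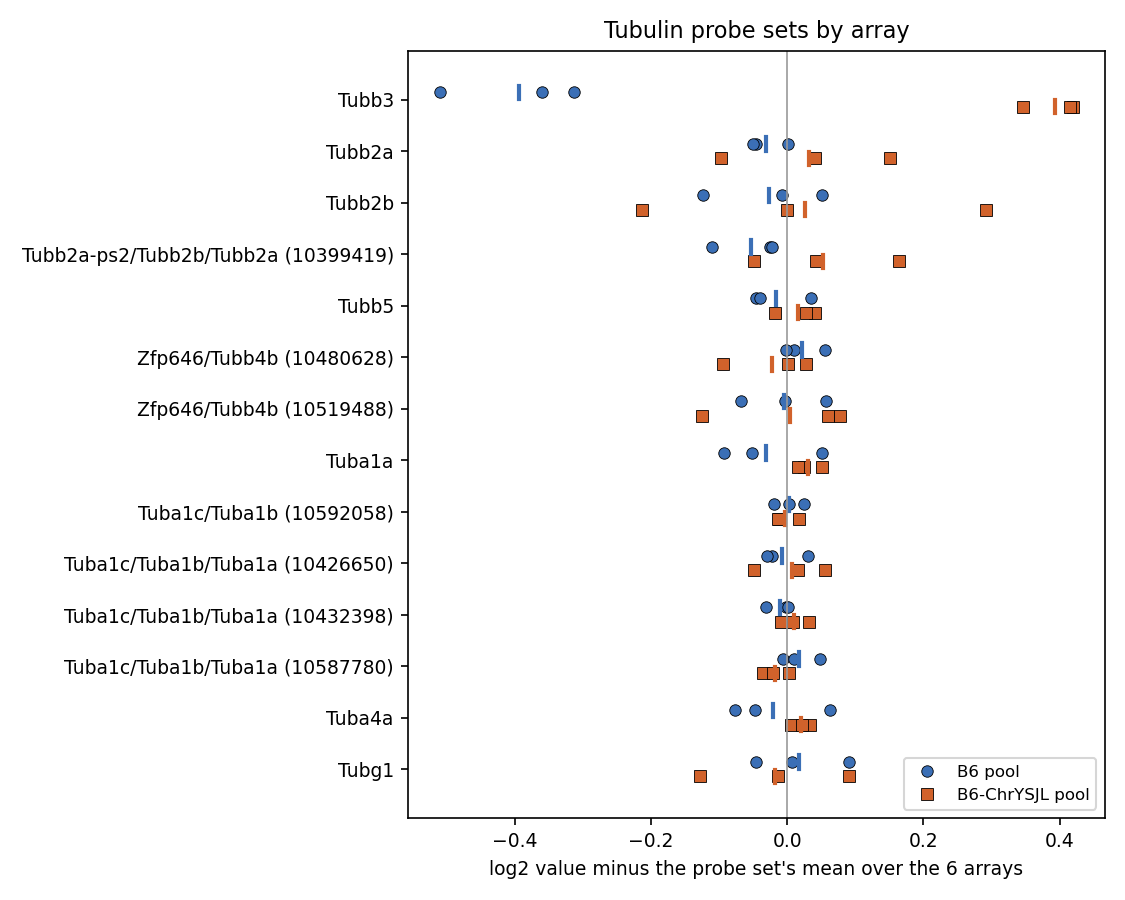
Each point is one pool's log2 value of a tubulin probe set minus that set's mean over the 6 arrays (horizontal axis, log2 units), with circles for B6, squares for B6-ChrYSJL and short bars for strain means. Tubb3 alone leaves a gap between the strains, and in the 13 other sets the strains overlap.

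Over the 13 probe sets beside Tubb3, strain differences ran from -0.04 to 0.11 with a median of 0.02, and 9 were above 0 and 4 below. All 13 were above background on all 6 arrays, and in all 13 the strains overlapped. The 95% intervals of these differences, each for its own set, lay between -0.23 and 0.33, or 0.854-fold and 1.26-fold in signal. They do not bound all 13 sets at once, and changes of single genes within a shared set may be hidden. Of the 14 sets, 1 was past an unadjusted p of 0.05 and 1 had no overlap between strains, where 10.6% and 17.1% of all tested probe sets did so in either direction, and in both cases the set was Tubb3, which the rule had picked.

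Tubb3 was also set against the mean deviation of the 13 others within each array, which removes anything that all tubulin sets of an array share. Relative to the others, Tubb3 lay at -0.50, -0.33 and -0.32 in the B6 pools and at 0.35, 0.44 and 0.36 in the B6-ChrYSJL pools. The strain means were -0.38 ± 0.10 and 0.38 ± 0.05 (SD, n = 3), a difference of 0.77 or 1.70-fold, and 0.68 separated the nearest pools of the 2 strains. The smallest deviation of Tubb3 from its own mean was 0.31, and the largest deviation of any other set on any array was 0.29, that of Tubb2b in B6-ChrYSJL replicate 3.

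The array holds 10 further tubulin genes with a probe set of their own, which complete the family. In 7 the difference was above 0, and the median was 0.11. Tubb1, the beta tubulin of megakaryocytes and platelets, was at 7.0005, 6.91 and 6.95 in B6 and at 7.21, 7.05 and 7.22 in B6-ChrYSJL. Its difference of 0.21 was the only one of the 10 past an unadjusted p of 0.05, where 4.69% of all tested sets were past it in that direction, and its adjusted p in limma was 0.400. Tubb6, another broadly distributed beta tubulin, was at 6.94, 6.96 and 6.97 in B6 and at 6.997, 7.16 and 7.20 in B6-ChrYSJL. Tubb1 and Tubb6 were the 2 of 10 without overlap between strains, against 7.68% of all tested sets that were higher without overlap.

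Tuba3a, an alpha tubulin known from testis, differed by 0.17 and Tubal3 by 0.16, and Tubb4a, a beta tubulin of brain, differed by 0.13. Tuba8 differed by 0.09, Tubd1, a delta tubulin of centrioles, by 0.01, Tube1, its epsilon relative, by -0.03, Tubg2, the second gamma tubulin, by -0.04 and Tuba3b by -0.11. In these 8 genes the strains overlapped, and Tuba3b, Tubal3 and Tube1 were below background on all arrays. Most of these 10 genes were dim, and probe sets with a mean between 6 and 7.5 had a median difference of 0.01, with 52.3% of them above 0. Among these 10 genes the largest difference was that of Tubb1.

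**Figure D2:**
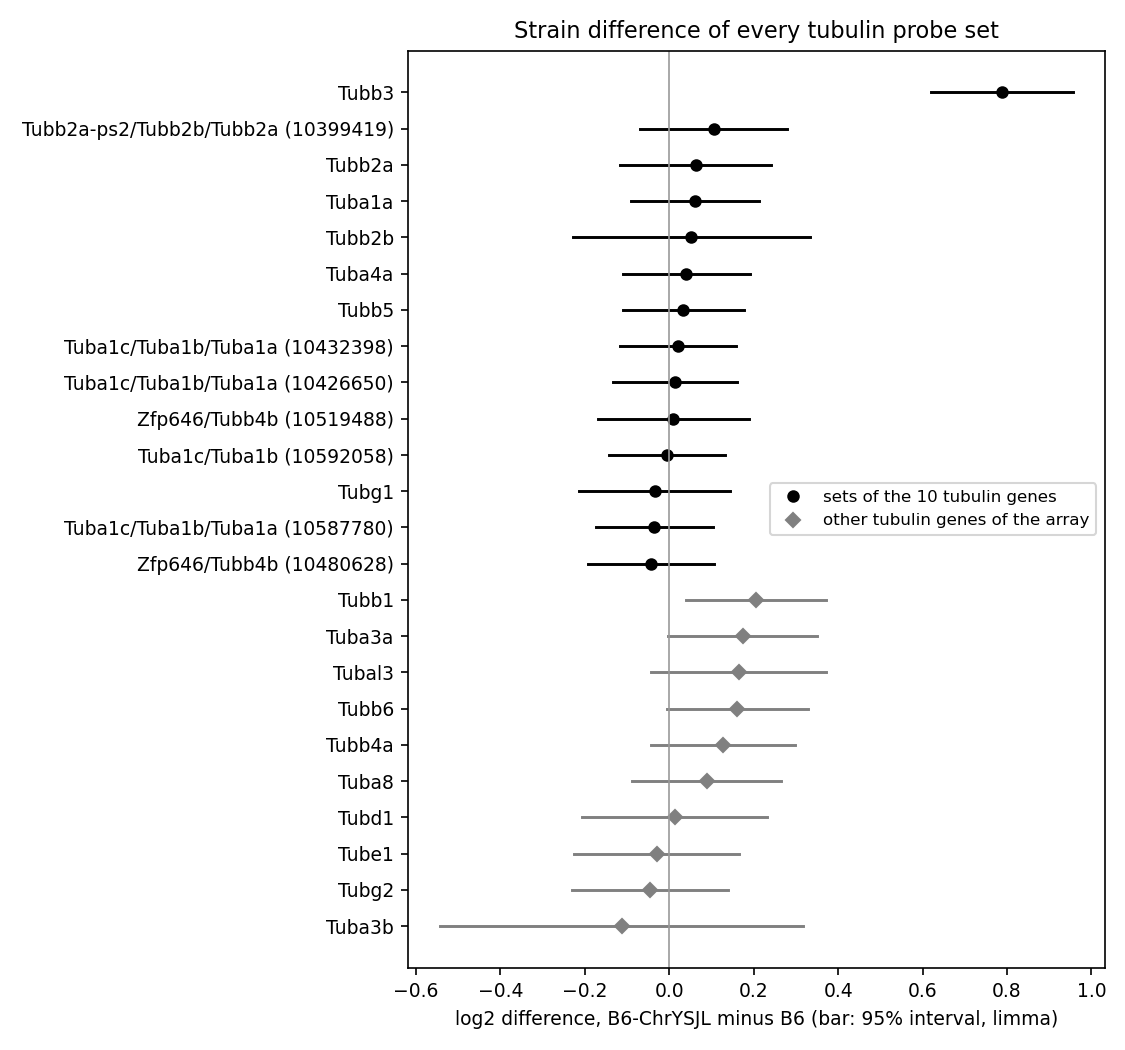
Strain difference of every tubulin probe set on the array (horizontal axis, B6-ChrYSJL minus B6 in log2 units), with limma's 95% interval as a bar; black circles are the 14 sets of the 10 genes and grey diamonds the 10 other tubulin genes. Tubb3 at 0.79 stands right of all the others, of which Tubb1 at 0.21 is the highest.

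The genes next to Tubb3 on chromosome 8 had smaller differences. In chromosome order, Spire2, Tcf25 and Mc1r come before Tubb3 and Def8, Afg3l1 and Dbndd1 after it, counting genes that have a probe set of their own. Spire2, an actin nucleator, differed by 0.04, Tcf25 by -0.10, and Mc1r, the melanocortin receptor of pigment cells, by 0.08. Def8 differed by 0.01, Afg3l1, a mitochondrial protease subunit, by -0.15, and Dbndd1 by 0.09. None of the 6 was past an unadjusted p of 0.05 in limma, with 0.124 the smallest, and their 95% intervals lay between -0.40 and 0.28. Tcf25 was lower in all B6-ChrYSJL pools, at 10.18, 10.21 and 10.18 against 10.30, 10.30 and 10.28, where 9.42% of all tested sets were lower without overlap. Dbndd1 was higher in all of them, at 7.10, 6.94 and 6.94 against 6.86, 6.91 and 6.92, where 7.68% of all tested sets were higher without overlap.

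**Figure D3:**
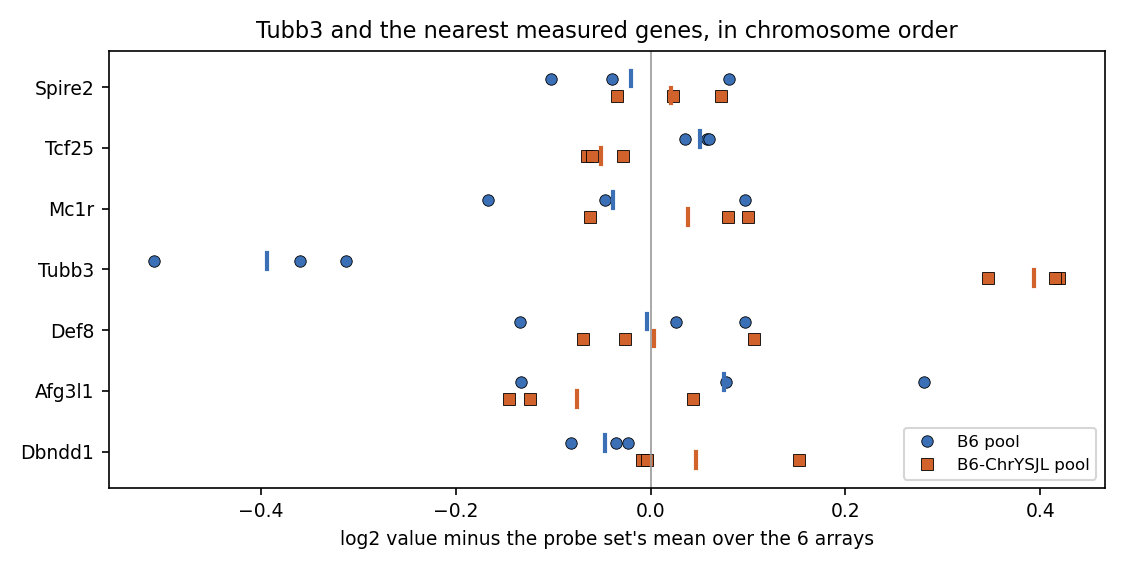
Each point is one pool's log2 value minus the probe set's mean over the 6 arrays (horizontal axis, log2 units) for Tubb3 and the 3 nearest measured genes on either side, listed in chromosome order; circles are B6, squares B6-ChrYSJL and short bars strain means. The 6 neighbours differ by -0.15 to 0.09 between strain means, against 0.79 for Tubb3.

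The proteins that make, anchor, cut, mark and use microtubules were followed in 7 lists of 141 genes, the 10 further tubulins included, of which 136 were measured by a probe set of their own. Of these, 7 were higher and 14 lower in B6-ChrYSJL at an unadjusted p under 0.05, or 5.15% and 10.3%, where 4.69% and 5.92% of all tested sets were. None was past an adjusted p of 0.05 in limma or in the linear model without moderation, with 0.212 the lowest in limma; the latter model had 7 and 15 at an unadjusted p under 0.05. The difference was below 0 in 88 genes and above 0 in 48, a share of 64.7% below 0 against 51.1% of all tested sets. The median was -0.03, beside -0.0036 over all tested sets. Tested sets with a mean between 6 and 7.5 had a median of 0.01, and the 7054 with a mean above 8 had one of -0.02. The lists hold both dim and bright genes, and none of these medians is matched to their brightness. The part of brightness in the share below 0 was not tested. The count of 14 fell to 9 without B6 replicate 2, to 6 without B6 replicate 3 and to 8 without B6-ChrYSJL replicate 3. The genes named next are, per list, those with the smallest p.

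Folding and supply of tubulin rests on prefoldin, the CCT chaperonin and tubulin cofactors. Of 22 measured genes, 1 was higher and 0 lower at an unadjusted p under 0.05, beside 4.69% and 5.92% of all tested sets, and the median was -0.03. Pfdn5, a prefoldin subunit, was at 11.57, 11.50 and 11.51 in B6 and at 11.71, 11.82 and 11.76 in B6-ChrYSJL, a difference of 0.23 without overlap, and its adjusted p was 0.337 in limma. Pfdn4, another subunit, differed by 0.16, Cct3 of the chaperonin by -0.11 and the cofactor Tbcd by -0.13. Only Pfdn5 of these 4 was past the unadjusted limit.

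Nucleation of microtubules takes place on gamma tubulin ring complexes held by large scaffold proteins. Of 18 measured genes, 1 was higher and 3 lower at an unadjusted p under 0.05, beside 4.69% and 5.92% of all tested sets. The median was -0.07. Akap9, a scaffold of the Golgi and centrosome, was at 8.64, 8.86 and 8.78 in B6 and at 8.48, 8.19 and 8.21 in B6-ChrYSJL, a difference of -0.47 with a standard error of 0.10. Pcnt, the pericentrin scaffold of the centrosome, was at 8.39, 8.34 and 8.31 in B6 and at 8.05, 8.00 and 7.95 in B6-ChrYSJL, a difference of -0.34. Tubgcp6, a ring complex subunit, differed by -0.18. Mzt1, a small protein of the same complex, went the other way, from 8.48, 8.35 and 8.46 in B6 to 8.74, 8.74 and 8.68 in B6-ChrYSJL, a difference of 0.29. These 4 genes had no overlap between strains, where 17.1% of all tested sets had none in either direction. Their adjusted p values in limma were between 0.212 and 0.402. Tubg1, the gamma tubulin that these proteins hold, differed by -0.03.

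Proteins that bind microtubule ends or the lattice had 1 higher and 5 lower of 22 measured, with a median of -0.10. At the same unadjusted limit, 4.69% of all tested sets were higher and 5.92% lower. Clip1, a plus-end linker, differed by -0.20, Ckap5, a polymerase that adds tubulin, by -0.17, and Dst, a linker to other filaments, by -0.21. Camsap3, which binds minus ends, differed by 0.22, but was below background on all 6 arrays. Severing and depolymerizing proteins had 2 higher and 1 lower of 12, with a median of -0.01. The 2 were Stmn3 and Stmn4, members of the stathmin family that sequester tubulin dimers and are known from neurons, with differences of 0.26 and 0.23. Stmn4 was above background on only 4 of the 6 arrays. Stmn3 was at 6.20, 6.11 and 6.07 in B6 and at 6.38, 6.31 and 6.48 in B6-ChrYSJL. Stmn2, their neuronal relative, differed by 0.16 and Kif2c, a depolymerizing kinesin of mitosis, by -0.19, and both were below background on all arrays. Stmn1, the brightest stathmin of the list, differed by -0.11, and the strains overlapped.

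Tubulin modifying enzymes add or remove tyrosine, glutamate, glycine or acetyl groups. Of 26 measured genes, 1 was higher and 2 lower, beside the same 4.69% and 5.92% of all tested sets, with a median of 0.00. Ttll7, a polyglutamylase of beta tubulin, differed by 0.20 and Agbl2, a carboxypeptidase, by -0.30, and both were below background on all arrays. Ttll5 and Ttll4, which belong to the same glutamylase family as Ttll7, differed by -0.15 and -0.16. Dynein, dynactin and transport kinesins had 0 higher and 3 lower of 26 measured, with a median of -0.07. Dync1h1, the dynein heavy chain, was at 9.78, 9.73 and 9.70 in B6 and at 9.50, 9.50 and 9.33 in B6-ChrYSJL, a difference of -0.29. The dynactin subunits Dctn2 and Dctn1 differed by -0.19 and -0.15, and Kif3a, a subunit of kinesin-2, by -0.21.

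**Figure D4:**
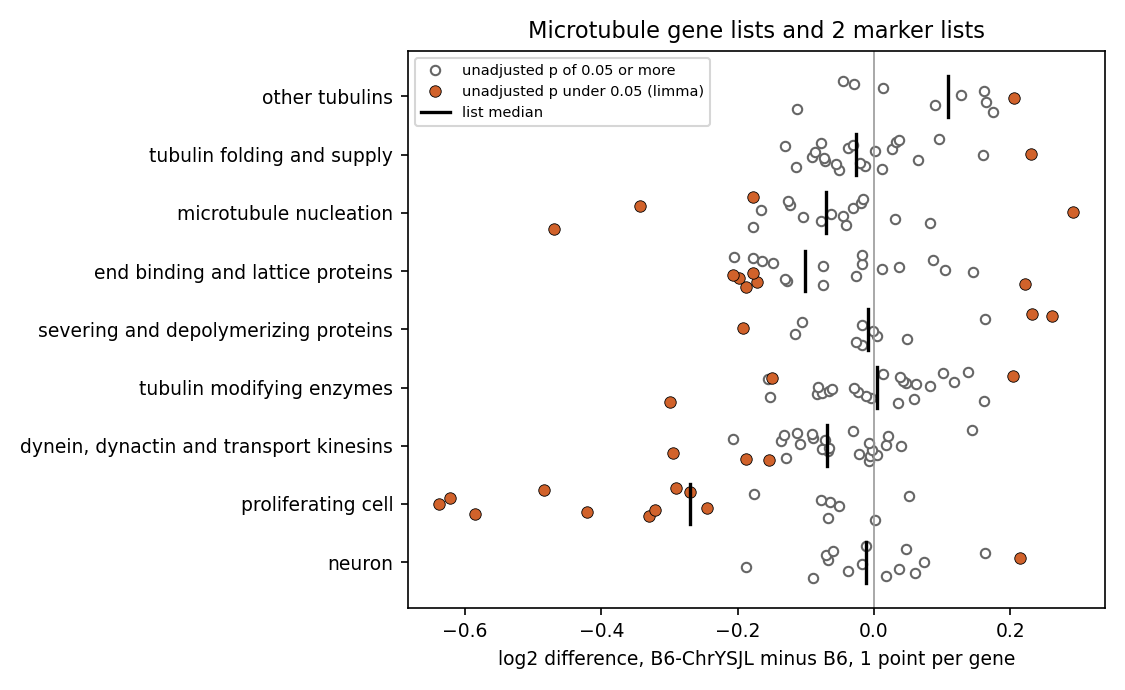
Each point is a gene's strain difference (horizontal axis, B6-ChrYSJL minus B6 in log2 units) in the 7 microtubule lists and in the lists of proliferating cell and neuron markers, with a vertical bar at the list median and filled points for an unadjusted p under 0.05 in limma. The median of the proliferating cell list is -0.27 and those of the microtubule lists lie between -0.10 and 0.11.

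Markers of other cells that a lymph node sort could hold were read beside the tubulins. Of 15 neuron markers, 10 were below background on all arrays, among them Snap25, Map2, Gap43, Stmn2 and Uchl1, and 3 had a mean above it, namely Nefh, Prph and Rbfox3. The mean log2 level of the list ran from 5.63 to 5.72 in B6 and from 5.65 to 5.71 in B6-ChrYSJL, so the strains overlapped. Rbfox3, a nuclear protein of neurons, was the only one past an unadjusted p of 0.05, at 6.14, 6.03 and 6.05 in B6 and 6.31, 6.15 and 6.39 in B6-ChrYSJL, a difference of 0.21. At that limit, 4.69% of all tested sets were higher. Nefh, the brightest of the list, differed by -0.19 and Prph by -0.07. Of the 15 markers, 7 had a difference above 0 and 8 below. Of 6 Schwann cell and glia markers, 1 was higher, Ngfr with 0.18, and the level ran from 6.69 to 6.71 in B6 and from 6.70 to 6.78 in B6-ChrYSJL.

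In 3 further marker lists the mean levels of the strains did not overlap and were higher in B6-ChrYSJL. In the proliferating cell list and the CD8 and cytotoxic cell list, described below, they did not overlap either and were lower. Lower levels without overlap were also found in the microtubule lists of nucleation, of end binding and lattice proteins, and of dynein, dynactin and transport kinesins. The pattern was thus not particular to cell markers, and how often gene lists in general show it was not computed. The melanocyte list (7 genes) had a level of 5.85 to 5.92 in B6 and of 5.94 to 5.99 in B6-ChrYSJL, with 1 gene higher, Tyrp1 with 0.20, while Tyr, Tyrp1 and Dct were below background on all arrays. The megakaryocyte and platelet list (6 genes), relevant to Tubb1, ran from 6.24 to 6.28 in B6 and from 6.35 to 6.36 in B6-ChrYSJL, with 0 of 6 past an unadjusted p of 0.05 and with Pf4 and Ppbp below background on all arrays. Stroma and endothelium (11 genes) ran from 6.46 to 6.48 in B6 and from 6.53 to 6.57 in B6-ChrYSJL, and 3 were higher, Pdpn with 0.20, Col1a2 with 0.18 and Col3a1 with 0.18. The B cell list had 3 of 14 higher and 1 lower, and its class II gene H2-Ab1 was at 6.76, 6.34 and 6.82 in B6 and 6.77, 7.66 and 7.40 in B6-ChrYSJL. Of 10 myeloid markers 1 was higher, and the levels overlapped. At the same unadjusted limit, 4.69% of all tested sets were higher and 5.92% lower. The part of these cells in the Tubb3 and Tubb1 values was not tested.

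Proliferating cell markers, which matter for tubulins because the spindle is built from them, had lower values in B6-ChrYSJL. Of 17 measured, 10 or 58.8% were lower at an unadjusted p under 0.05 and 0 were higher, where 5.92% and 4.69% of all tested sets were, with a median of -0.27, although none was past an adjusted p of 0.05 in limma and the lowest was 0.148. The mean level of the list ran from 6.994 to 7.002 in B6 and from 6.64 to 6.81 in B6-ChrYSJL. Mki67 differed by -0.62 and Top2a, the topoisomerase of dividing cells, by -0.48. Tubb5 and the shared sets of Tuba1a, Tuba1b and Tuba1c differed by -0.03 to 0.03 in the same arrays. CD8 and cytotoxic cell markers had 3 of 8 lower and 0 higher, beside the same 5.92% and 4.69% of all tested sets, among them Cd8a with -0.54 and Cd8b1 with -0.28, and ran from 6.995 to 7.03 in B6 and from 6.77 to 6.86 in B6-ChrYSJL. None of the lists' part in the tubulin values was tested.

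The probe sets most like Tubb3 were sought among 13477 with a single symbol and a mean above background, by Pearson correlation over the 6 arrays. The 6 highest were Arl15 (r = 0.989), Gm10778 (0.989), Cop1 (0.989), Camk2b (0.988), Acta1 (0.985) and Mir185 (0.983), and 151 sets were above 0.9. With 3 pools in each strain, such a correlation mostly records a strain difference, and these 6 differed by 0.12 to 0.28. Acta1, the skeletal muscle actin, had the largest of these, at 6.53, 6.61 and 6.54 in B6 and at 6.81, 6.84 and 6.85 in B6-ChrYSJL. When the deviations from the strain means were used instead, the 6 highest were Orc2, Tradd, Stxbp3, Lsm4, Phf10 and Ing3, with r between 0.990 and 0.999 and strain differences from -0.12 to 0.05. No gene was in both groups of 6, and 3 of the latter had an r below 0 over the 6 arrays. The other tubulin sets had r between -0.61 and 0.62 with Tubb3 over the 6 arrays. These correlations rest on 6 arrays that share the strain difference and are a description only.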

How the data were processed

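RNA of sorted CD4+TCRB+ lymph node cells from 3 pools of B6 and 3 pools of B6-ChrYSJL females, 50 ng each, was amplified and hybridised to Affymetrix Mouse Gene 1.0 ST arrays. The authors processed the signals with RMA in Partek Genomic Suites 6.6 (background correction, quantile normalization and summary over probes) and deposited 1 log2 value per probe set and array, and GCOS and mm9 are named in the submitters' processing notes. Quantile normalization gives the arrays the same distribution, so a change shared by most transcripts is not visible, and log2 differences of dim sets are understated. These values were used as deposited.

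Of 35556 deposited probe sets, 23410 had a gene symbol in the platform annotation (21789 with 1 symbol and 1621 with several), and 12146 had none and were left out of the main fit. All were fitted together by lmFit and eBayes of limma 3.58.1 under R 4.3.3, as B6-ChrYSJL minus B6 with no covariate, with Benjamini-Hochberg adjustment over the 23410; the procedure was tested on simulated data. The median standard error was 0.08. Precision is limited by how far a set's signal is above background and by having 3 arrays per strain. Background was set at the 95th percentile of receptor probe sets, each averaged over the 6 arrays. A list gene was read through its brightest probe set with a single symbol. Promoters and gene order came from RefSeq tables for GRCm38.p6, with no coordinates of the array's build used.

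The members and lists were chosen with earlier results of these data known. Named were all member sets, the other tubulins and the 4 genes with the smallest p of each microtubule list. So were the 6 sets most like Tubb3 by each measure and up to 3 neighbours on each side. Of the markers, those brightest or with the smallest p were named. Further markers were named for being below background, and Stmn1 for being the brightest stathmin. The alternatives were an intensity trend, robust moderation or none, array weights, filters on dim probe sets, other sets of probe sets, centred or repeated normalization, leaving out each array, and a block for the replicate number.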

Additional observations from a re-analysis of the deposited data

How the results depend on the processing

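The Tubb3 difference lay between 0.73 and 0.83 under the 16 alternatives that gave it, and its difference from the other tubulins between 0.71 and 0.80. Its adjusted p in limma, 0.0218, depended on the setting. It was 0.226 without moderation, 0.134 over all deposited probe sets and 0.0685 after repeated quantile normalization. Leaving out an array gave 0.0427 to 0.166, and it stayed under 0.05 only without B6 replicate 3, with 0.124 without B6 replicate 1, 0.118 without B6 replicate 2, and 0.163, 0.166 and 0.103 without B6-ChrYSJL replicates 1, 2 and 3. It was under 0.05 with an intensity trend, robust moderation, array weights, centred medians and sets with 1 symbol. A filter on the 6-array mean removed Tubb3. A filter on a mean above background in at least 1 strain, chosen after seeing the data, kept it only through B6-ChrYSJL, where it is high, so its value there says nothing about the call. None of the other 13 sets passed an unadjusted p of 0.05 under any alternative, and their differences stayed between -0.09 and 0.17.

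With the replicate number as a block, the adjusted p of Tubb3 was 0.0788 and 9 list genes were lower at an unadjusted p under 0.05, against 14. Same-numbered pools did not deviate together over the tested sets (r from -0.04 to 0.00), which gives no sign that the numbers pair them. Such an r could miss an effect on few sets, so it does not show that pairing is absent. The lower count was 6 to 13 with an array left out, with 9 without B6 replicate 2, 6 without B6 replicate 3 and 8 without B6-ChrYSJL replicate 3. With an intensity trend 1 list gene, Pfdn5, passed an adjusted p of 0.05 at 0.0290. With 3 pools per strain and Tubb3 near background, the cause of these changes was not tested.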
